A study of Mus musculus with 16 samples.

Results

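The chromatin at and around 40 genes of DNA replication and mitosis was followed across thymocyte development. These 40 members were chosen by symbol, for their known roles, out of 20807 protein-coding genes of chromosomes 1 to 19, and fall into 7 groups by role. Each member was represented by the ATAC-seq peaks within its gene body or 5 kb on either side. A peak within 1 kb of a transcriptional start site (TSS) of the gene itself was a promoter peak, and the remaining ones were other peaks. The 4 lists together hold 944 peaks at these genes of 476734 in all, and these merge into 318 regions of 185978.

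The thymocytes came from 9 weeks old wild type C57BL/6J mice. From each of 4 mice, thymocytes were sorted from cells negative for a lineage cocktail. They had neither CD4 nor CD8 (double negative, DN), both (double positive, DP), CD4 alone (SP4) or CD8 alone (SP8). DN cells were negative for CD3 as well, while SP4 and SP8 cells were positive for CD3. This gave 16 libraries without any treatment or transgene. Before calling peaks, the authors thinned the libraries to the median depth among them, and the pooled depth they report still differed between stages. They joined the mice of each stage, so that each stage is 1 list of peaks. Values below are therefore single values with no spread between mice, no test between stages was possible, and differences describe these lists. The DN list is the longest (150139 peaks), followed by SP4 (115074), DP (107110) and SP8 (104411). In a bulk sort, fewer cells of one kind and less open chromatin per cell cannot be told apart.

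The labelled cell types were set against marker genes. All 5 T cell markers had a promoter peak at each stage, and so did the tested markers of the 4 sorted populations. The presence of a promoter peak alone thus does not tell the stages apart. *Cd40lg*, a marker of SP4, was not tested. Of 4 myeloid markers, 4 had a promoter peak at DN and 2 at each other stage, *Lyz2* and *Csf1r* at DN alone. The lineage cocktail contained antibodies to the myeloid markers Mac1, Gr1 and CD11c. Whether cells of other types contributed to the DN values below was not tested.

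Cells copy their DNA in S phase and divide it in M phase. The MCM helicase is loaded on origins with the help of Cdc6 and Cdt1 and is switched on with Cdc45, Mcm10 and the GINS complex, whereas cyclins with their kinases drive the passage from one phase to the next. Many of these genes are transcribed in waves: E2F factors act on genes of the G1 to S transition, and the DREAM and MuvB complexes, which bind the cell cycle genes homology region (CHR), act with the CCAAT-binding factor NF-Y on genes of G2 and M phase. In the thymus, proliferation is most intense after β-selection, as DN cells turn into DP cells, while most small DP cells and the single positive cells are at rest.

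Promoter sequences carry the elements through which these waves are known to be controlled, and 9 of them are shown for the motifs they hold beside the peaks described below. They were taken from RefSeq (GRCm38.p6, the same assembly as mm10) and run from 250 bases before the annotated start to 30 bases after it, 5′ to 3′ on the strand of the gene. Capitals mark matches to an E2F site (TTTCCCGC, TTTCGCGC, TTTGCCGC or TTTGGCGC), a CHR element (TTTGAA or TTCGAA) or a CCAAT box (CCAAT), each on either strand. For each role, the member with the highest mean promoter peak among those with a match is printed, and *Mcm6* and *Cdk1* were added after their matches were seen, *Mcm6* for its E2F sites and *Cdk1* because it holds all 3 motifs.
Mcm6 (chr1:128359676-128359955, minus strand): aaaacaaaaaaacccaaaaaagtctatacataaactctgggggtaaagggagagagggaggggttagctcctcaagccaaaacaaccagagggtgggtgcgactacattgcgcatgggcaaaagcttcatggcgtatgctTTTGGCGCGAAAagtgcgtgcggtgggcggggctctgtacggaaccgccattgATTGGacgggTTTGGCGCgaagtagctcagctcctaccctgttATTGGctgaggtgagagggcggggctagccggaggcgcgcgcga
Mcm10 (chr2:5012762-5013041, minus strand): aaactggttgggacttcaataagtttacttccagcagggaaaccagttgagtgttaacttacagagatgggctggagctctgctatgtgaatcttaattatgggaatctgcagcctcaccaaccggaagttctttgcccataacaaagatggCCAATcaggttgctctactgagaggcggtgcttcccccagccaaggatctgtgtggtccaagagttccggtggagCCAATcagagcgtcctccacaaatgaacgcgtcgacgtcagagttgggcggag
Top2a (chr11:99024160-99024439, minus strand): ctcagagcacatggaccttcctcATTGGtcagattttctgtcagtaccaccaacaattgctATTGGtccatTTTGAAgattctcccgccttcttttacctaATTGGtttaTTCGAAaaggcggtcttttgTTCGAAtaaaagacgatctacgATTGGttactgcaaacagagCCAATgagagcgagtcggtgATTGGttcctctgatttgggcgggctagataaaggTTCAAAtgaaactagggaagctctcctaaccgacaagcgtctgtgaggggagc
Cdk1 (chr10:69352883-69353162, minus strand): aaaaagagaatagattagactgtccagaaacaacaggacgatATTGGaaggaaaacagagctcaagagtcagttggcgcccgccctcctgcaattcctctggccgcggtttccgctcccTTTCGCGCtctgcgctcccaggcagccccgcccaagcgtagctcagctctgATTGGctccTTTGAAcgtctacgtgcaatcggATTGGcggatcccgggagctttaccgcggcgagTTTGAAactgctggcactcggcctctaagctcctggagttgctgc
Ccnb2 (chr9:70421525-70421804, minus strand): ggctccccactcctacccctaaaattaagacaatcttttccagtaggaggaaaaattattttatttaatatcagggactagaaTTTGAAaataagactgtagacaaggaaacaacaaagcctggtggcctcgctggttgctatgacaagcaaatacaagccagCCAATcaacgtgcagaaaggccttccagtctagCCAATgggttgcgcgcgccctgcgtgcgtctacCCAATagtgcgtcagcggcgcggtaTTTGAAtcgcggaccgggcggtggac
Aurka (chr2:172370541-172370820, minus strand): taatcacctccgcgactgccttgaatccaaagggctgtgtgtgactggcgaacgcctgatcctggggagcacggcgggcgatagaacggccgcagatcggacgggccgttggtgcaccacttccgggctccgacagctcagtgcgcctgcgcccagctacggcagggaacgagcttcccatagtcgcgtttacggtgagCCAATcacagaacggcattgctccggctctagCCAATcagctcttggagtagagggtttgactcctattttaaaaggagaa
E2f2 (chr4:136180532-136180811, plus strand): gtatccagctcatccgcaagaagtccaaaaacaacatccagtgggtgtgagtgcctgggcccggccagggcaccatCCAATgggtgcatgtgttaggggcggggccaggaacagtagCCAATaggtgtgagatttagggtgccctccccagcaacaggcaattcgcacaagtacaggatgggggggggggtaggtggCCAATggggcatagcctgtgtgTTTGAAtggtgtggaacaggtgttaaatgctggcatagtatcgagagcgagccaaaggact
Ccnd3 (chr17:47593217-47593496, plus strand): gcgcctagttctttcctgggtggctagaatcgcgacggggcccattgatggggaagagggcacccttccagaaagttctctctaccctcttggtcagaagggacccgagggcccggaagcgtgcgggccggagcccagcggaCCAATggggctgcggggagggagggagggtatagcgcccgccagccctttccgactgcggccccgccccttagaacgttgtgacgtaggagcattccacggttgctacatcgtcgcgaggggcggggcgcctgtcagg
Cdkn2c (chr4:109665343-109665622, minus strand): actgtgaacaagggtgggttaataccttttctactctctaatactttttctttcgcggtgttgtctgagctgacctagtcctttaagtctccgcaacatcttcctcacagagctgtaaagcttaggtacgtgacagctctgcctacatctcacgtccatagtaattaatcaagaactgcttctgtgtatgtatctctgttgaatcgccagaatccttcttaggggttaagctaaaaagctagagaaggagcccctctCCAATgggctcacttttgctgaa
In the *Mcm6* promoter, the capital run of 12 bases holds 2 E2F matches that overlap on opposite strands, the first starting 110 bases before the RefSeq start, and another E2F match begins at 47 bases before it. *Cdk1*, the kinase of mitotic entry, has an E2F match beginning 131 bases before the start, CHR matches at 71 and 15 bases before it and 3 CCAAT boxes, of which the middle one lies next to the upstream CHR match. *Top2a* holds 6 CCAAT boxes and 4 CHR matches but no E2F match. The CCAAT boxes of *Ccnb2* begin at 87, 54 and 21 bases before the start, and a CHR match lies just inside the transcript. In the *Aurka* promoter the CHR match falls at base 33 of the transcript, beyond the bases printed, and a further CCAAT box of *Mcm10* at base 32 likewise.

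RefSeq promoters of 300 bases were at hand for 33 members, all but *Mcm4*, *Gins1*, *Gins2*, *Ccna2*, *Ccne2*, *Ccnd2* and *Aurkb*. An E2F match was present in 8 of 33 (24.2%), against 4.13% of 10158 promoters of genes with a promoter peak at all 4 stages and 2.26% of all 32851 promoters. Of these 8, 6 belong to the licensing and helicase genes (*Mcm3*, *Mcm5*, *Mcm6*, *Mcm7*, *Cdc6* and *Cdt1*, of 9 with a sequence), and the others are *Cdk1* and *Cdk2*. A CHR match was present in 12 of 33 members (36.4%), against 13.2% of the genes with a promoter peak at all 4 stages and 19.2% of all promoters. They include the 4 mitotic kinase and checkpoint genes with a sequence, *Aurka*, *Plk1*, *Bub1* and *Cdc20*. All 12 also held a CCAAT box, a motif found in 24 of 33 members (72.7%) and in 38.2% and 37.4% of the comparison promoters. *Mcm7* and *Cdk1* held all 3 motifs, and 7 members held none of them: *Tyms*, *Tk1*, *Ccne1*, *Cdk4*, *Cdk6*, *Cdkn1a* and *E2f1*. In some of these 7, the DN summit lay beyond the 300 bases searched. It was 1177 bases past the RefSeq start in *Tk1*, 238 in *Cdk4*, 590 in *Cdk6* and 3508 in *Cdkn1a*. In *E2f1* it was 528 bases before that start. A match describes letters only, and a promoter without one may hold a site of other letters or outside these bases.

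**Figure D1:**
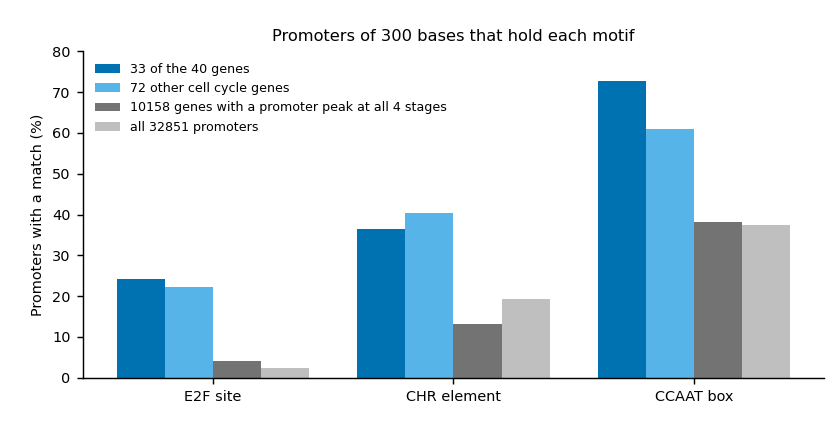
Share of 300-base RefSeq promoters (vertical axis, %) with at least 1 match to each motif, for the 33 members with a sequence, 72 other cell cycle genes, 10158 genes with a promoter peak at all 4 stages, and all 32851 promoters. The bars of the members stand at 24.2% (E2F site), 36.4% (CHR element) and 72.7% (CCAAT box), each above the bars of both wider sets.

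Where the search was moved from the annotated start to 100 bases on either side of the DN summit, all 40 members could be searched. An E2F match was then found in 9 of 40 (22.5%, against 2.32% of 15148 genes with a DN promoter peak), a CHR match in 11 (27.5% against 7.48%) and a CCAAT box in 27 (67.5% against 27.6%). For the members, these shares were similar to those at the annotated start. The annotated start had itself been taken nearest the DN summit where a gene had several. The 2 windows therefore overlap in many members, and their likeness is no separate support.

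All 40 members had a promoter peak at each of the 4 stages. Of all protein-coding genes, 62.9% had one at all 4 stages, and of those with a promoter peak at any stage, 85.0% had it at all 4. In each of the 40 members, at least 1 promoter region was the same merged region at all 4 stages. The lists gave 109 promoter peaks at DN, 95 at DP, 88 in SP4 and 89 in SP8 for these genes. The summit of the tallest promoter peak lay within 100 bp of a TSS in 26 members at DN, 24 at DP, 24 in SP4 and 22 in SP8. It kept its place to within 100 bp across the stages in 28 of 40. A promoter shared with a protein-coding neighbour on the opposite strand is present in 7 members (17.5%, against 12.7% of genes), namely *Mcm4* with *Prkdc*, *Mcm7* with *Ap4m1*, *Cdc45* with *Ufd1*, *Gins1* with *Abhd12*, *Tk1* with *Afmid*, *Cdk2* with *Pmel* and *Aurka* with *Cstf1*. A peak at these promoters belongs to both genes.

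Promoter height is given as the log2 of the fold enrichment of the tallest promoter peak over a median of the same list. That is the median fold enrichment of the peaks in regions called at all 4 stages, so that 0 is an ordinary shared peak. It was 8.43 at DN, 7.57 at DP, 8.53 in SP4 and 8.59 in SP8. Fold enrichments given below for single genes were not divided by it, and their order can differ from that of the heights. *Aurka*, for example, had a lower fold enrichment at DP than at DN, but heights of 1.80 at DP and 1.70 at DN. The median height of the members was 0.73 at DN, 0.92 at DP, 0.92 in SP4 and 0.91 in SP8. The medians of all genes with a promoter peak were 0.49, 0.74, 0.64 and 0.72 in the same order, and 23 to 25 of the 40 members lay above them. The members thus ranged widely, from -0.69 for *E2f2* at DP to 2.38 for *Mcm10* at SP8.

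**Figure D2:**
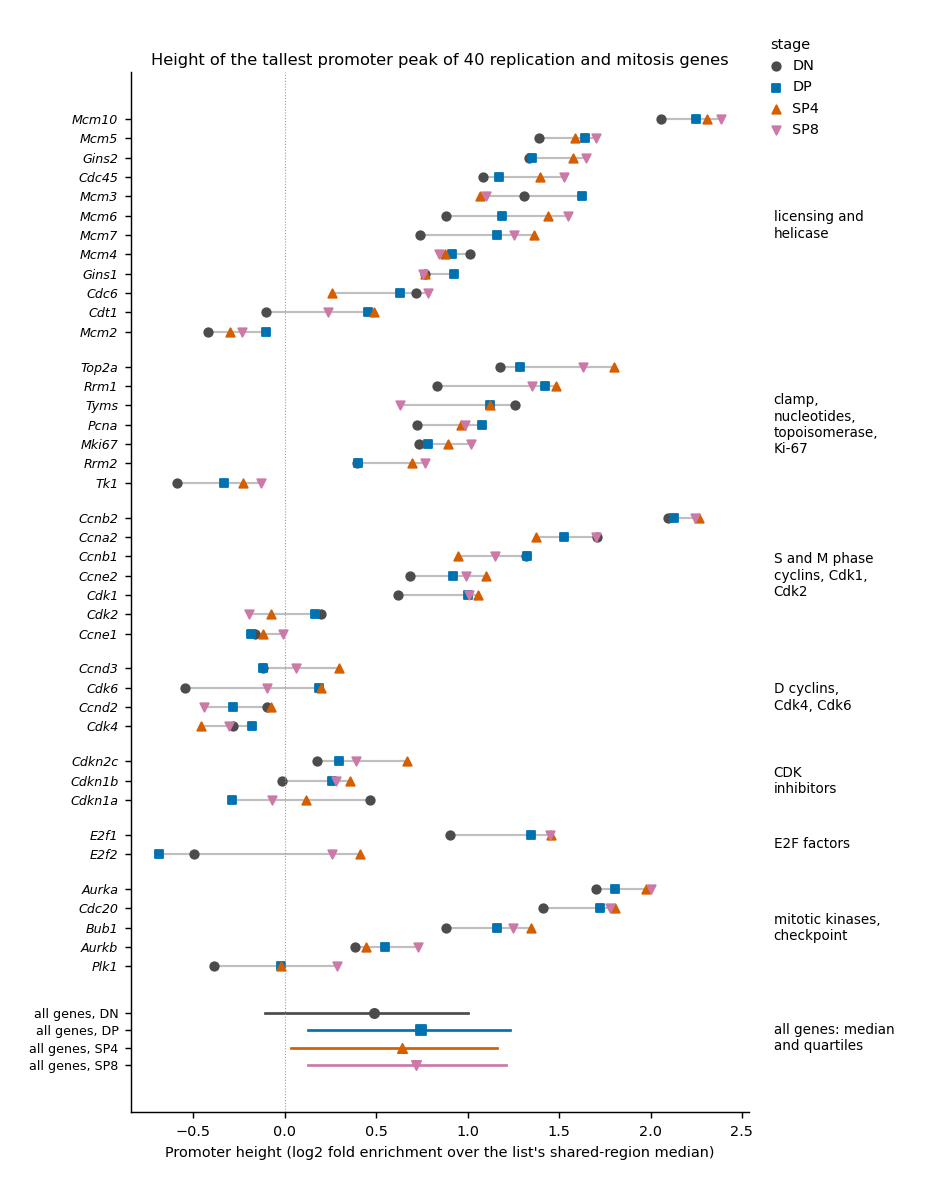
Promoter height (horizontal axis, log2) of each member at DN, DP, SP4 and SP8, grouped by role and ordered by mean height, with the median and quartiles of all genes at the bottom. *Mcm10*, *Ccnb2* and *Aurka* lie near 2 at each stage, the D cyclin genes with *Cdk4* and *Cdk6* lie near 0, and *E2f2* has the widest spread between stages.

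Few promoters of the members differed in height between stages. Over the 4 stages, 10 of 40 members had a range of at least 1.5-fold, the size taken here as a difference, while 36.6% of all genes with a promoter peak at each stage did. The median range was 0.41 on the log2 scale for members and 0.48 for genes. *E2f2* alone ranged over 2-fold or more.

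Comparing DN with DP, 1 member was at least 1.5-fold higher at DN (*Cdkn1a*), against 6.61% of genes, and 2 were higher at DP (*Cdk6* and *Rrm1*), against 10.4%. From DN to SP4, 0 members were higher at DN (9.23% of genes) and 6 were higher at SP4 (*E2f2*, *Cdk6*, *Rrm1*, *Top2a*, *Mcm7* and *Cdt1*), against 7.96%. From DN to SP8, 1 was higher at DN (*Tyms*; 8.56% of genes) and 3 were higher at SP8 (*E2f2*, *Plk1* and *Mcm6*), against 10.0%. *E2f2* was the only member past 1.5-fold between DP and SP4 and between DP and SP8, in both cases higher in the single positive cells (3.76% and 3.92% of genes). In the opposite direction, 10.4% of genes were higher at DP than at SP4 and 8.86% higher at DP than at SP8, and 0 members in each case. SP4 and SP8 differed by 1.5-fold in 0 members, while 3.09% of genes were higher at SP4 and 4.19% at SP8. These counts are small, and whether they differ from the shares of all genes was not tested.

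The scale itself shifts between lists: the median difference of all genes was -0.20 for DN less DP, -0.11 for DN less SP4, -0.16 for DN less SP8, 0.10 for DP less SP4, 0.06 for DP less SP8 and -0.04 for SP4 less SP8. The members' medians were -0.14, -0.26, -0.30, -0.07, -0.09 and 0.01. After subtracting the median of all genes, 1 member was higher at DN (10.0% of genes) and 0 at DP (3.35%). Between DN and SP4, 0 were higher at DN (12.0%) and 2 at SP4 (4.93%). Between DN and SP8, 2 were higher at DN (11.7%) and 1 at SP8 (4.59%). Between DP and SP4 the counts were 0 (7.56%) and 2 (5.21%), and between DP and SP8 0 (7.16%) and 1 (4.83%). SP4 and SP8 gave 0 on both sides (3.66% and 3.53%). The side with more members changed between DN and DP and between DN and SP8, and stayed the same in the other comparisons. With counts this small, no direction is read from them, and their difference from the shares of all genes was not tested. Of the 15 calls made before, in 10 members, 7 remained, in *E2f2*, *Cdkn1a*, *Tyms* and *Cdk6* (against SP4). The other 8 were lost, among them every call of *Mcm6*, *Mcm7*, *Cdt1*, *Rrm1*, *Plk1* and *Top2a*, while *Top2a* between DP and SP4 and *Cdkn1a* between DN and SP8 came in.

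Among the 12 licensing and helicase genes, median promoter height was 0.95 at DN, 1.17 at DP, 1.22 in SP4 and 1.18 in SP8. The strongest promoter was that of *Mcm10* (chr2:4989714-5012791, minus strand), a factor needed to start the replication fork. Its promoter peak had a fold enrichment over local background of 35.1 at DN, 36.0 at DP, 42.3 in SP4 and 44.8 in SP8, or heights of 2.06, 2.25, 2.31 and 2.38. These 4 values lie within 1.25-fold of each other. The weakest was *Mcm2*, a subunit of the same helicase as *Mcm3* to *Mcm7*, with fold enrichments of 6.30, 7.05, 6.92 and 7.31 in the order DN, DP, SP4 and SP8. Its heights of -0.42, -0.10, -0.30 and -0.23 were all under an ordinary shared peak. The 6 helicase subunits therefore differ more among themselves than any of them does between stages.

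*Mcm6* rose from 15.5 at DN and 17.3 at DP to 23.1 at SP4 and 25.1 at SP8, and its height was 1.59-fold higher at SP8 than at DN. This peak sits at the promoter printed above with its 3 E2F matches. *Mcm7*, whose promoter is shared with *Ap4m1*, went from 14.1 at DN and 16.9 at DP to 21.9 at SP4 and 20.5 at SP8, a 1.54-fold higher value at SP4 than at DN. *Cdt1*, which loads the helicase, read 7.86 at DN, 10.4 at DP, 11.96 in SP4 and 10.1 in SP8, and was just past 1.5-fold higher at SP4 than at DN. DN was the lowest stage in all 3 genes, as it was for the median of all genes. Less that median, the differences were 1.42-fold for *Mcm6*, 1.42-fold for *Mcm7* and 1.39-fold for *Cdt1*, all under 1.5-fold.

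The other licensing genes stayed within 1.5-fold. *Mcm3* was tallest at DP, at 23.4, with 20.9 at DN, 17.9 at SP4 and 18.4 at SP8. *Cdc6*, the partner of *Cdt1* in loading, was lowest at SP4 (10.2) and read 13.9 at DN, 11.7 at DP and 14.8 at SP8. For *Gins1* and *Mcm4*, both with shared promoters, the height ranged over 1.12-fold, and it ranged over 1.24-fold to 1.36-fold for *Mcm5*, *Gins2* and *Cdc45*. The tallest peak of *Gins1* lay at an inner start at DN and near the 5′ end at the other stages, however. Followed at the region near the 5′ end (chr2:150904047-150905158), its heights were 0.55 at DN, 0.92 at DP, 0.77 in SP4 and 0.76 in SP8.

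Another 7 members supply the clamp, the nucleotides and the topoisomerase or mark dividing cells. *Top2a* (chr11:98992943-99024189, minus strand), which untangles sister chromatids, had the highest mean in the group, with fold enrichments of 19.05 at DN, 18.5 at DP, 29.7 in SP4 and 26.7 in SP8. Both single positive values lie above both immature ones, and SP4 was 1.54-fold higher than DN by height, or 1.42-fold less the median of all genes. *Rrm1*, the large subunit of ribonucleotide reductase, read 14.98 at DN and 20.3, 23.8 and 21.9 at DP, SP4 and SP8. DN was the low stage, with a height 1.51-fold lower than DP and 1.57-fold lower than SP4. Less the median of all genes, *Rrm1* passed 1.5-fold in neither case (1.31-fold and 1.45-fold). *Rrm2*, the small subunit, read 11.1, 10.0, 13.8 and 14.6 and stayed within 1.29-fold.

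*Tyms*, which makes thymidylate, went the other way. Its promoter peak was 20.2 at DN, 16.5 at DP, 18.6 in SP4 and 13.3 in SP8, and its height was 1.55-fold higher at DN than at SP8. *Tk1*, which salvages thymidine, had the lowest mean of the group, with 5.60 at DN, 6.02 at DP, 7.29 in SP4 and 7.84 in SP8, but the tallest peak did not lie at the same TSS at each stage. *Pcna*, the sliding clamp, ranged over 1.28-fold and *Mki67*, which encodes the proliferation marker Ki-67, over 1.22-fold. The peak of *Mki67* read 14.0 at DN, 13.1 at DP, 15.8 in SP4 and 17.4 in SP8, so that the promoter of this widely used marker was nearly level across the lists.

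Of the S and M phase cyclins, *Ccnb2* (chr9:70407692-70421547, minus strand), a partner of Cdk1 in mitosis, had the tallest promoter, with fold enrichments of 36.1 at DN, 33.1 at DP, 41.1 in SP4 and 40.7 in SP8. By height it ranged over 1.13-fold, among the narrowest of the 40. *Ccna2* read 27.6, 21.8, 22.2 and 28.0, and *Ccnb1* 20.99, 18.9, 16.5 and 19.1. *Ccne1*, which starts S phase with Cdk2, had the lowest mean, with 7.51 at DN, 6.65 at DP, 7.84 in SP4 and 8.52 in SP8, whereas its paralogue *Ccne2* read 13.5, 14.3, 18.3 and 17.1. *Cdk1* went from 12.9 at DN to 15.2, 17.8 and 17.3, and *Cdk2* from 9.67 at DN to 8.49, 8.09 and 7.49. None of these 7 genes reached 1.5-fold between any 2 stages.

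The mitotic kinase and checkpoint genes had median heights of 0.88 at DN, 1.16 at DP, 1.35 in SP4 and 1.25 in SP8. *Aurka*, the spindle pole kinase, was the tallest, at 27.4, 26.5, 33.6 and 34.4 in the order DN, DP, SP4 and SP8. *Cdc20*, the activator of the anaphase-promoting complex, followed at 22.4, 25.1, 29.8 and 29.4. The lowest was *Plk1*, a kinase of mitotic entry and spindle assembly, at 6.44, 7.46, 8.42 and 10.5. Its height was 1.59-fold higher at SP8 than at DN, or 1.42-fold less the median of all genes. The same merged region held these peaks at all stages, but their summits ranged over 445 bp within it. *Bub1*, of the spindle checkpoint, ranged over 1.38-fold and *Aurkb*, of the chromosomal passenger complex, over 1.27-fold.

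D cyclins with Cdk4 and Cdk6 link outside signals to the cycle by phosphorylating Rb, and in thymocytes cyclin D3 is required for the expansion that follows pre-TCR signalling. These 4 genes had the lowest promoters as a group, with median heights of -0.20 at DN, -0.15 at DP, 0.06 in SP4 and -0.20 in SP8, but the most peaks around them, with 93 of the other peaks at DN, 57 at DP, 61 in SP4 and 56 in SP8. *Cdk6* (chr5:3341485-3531008, plus strand) read 5.76 at DN, 8.60 at DP, 9.77 in SP4 and 8.03 in SP8 at its tallest promoter region. DN was the lowest, and its height was 1.66-fold under DP and 1.68-fold under SP4. Less the median of all genes, *Cdk6* stayed past 1.5-fold against SP4 (1.55-fold) but not against DP (1.44-fold). *Ccnd3* (chr17:47505051-47599691, plus strand) read 7.74, 6.96, 10.5 and 8.96, and *Cdk4* 6.92, 6.68, 6.20 and 6.94. Neither reached 1.5-fold. The DP value of *Ccnd3* came from the start at its 5′ end and the others from an inner start, whose region read 6.89 at DP.

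*Ccnd2* (chr6:127125162-127152193, minus strand) had a promoter peak at each stage, but not always at the same place. The region over its 5′ end (chr6:127152125-127152764) was called at DN, SP4 and SP8, with fold enrichments of 7.87, 8.09 and 6.33, and was not called at DP. A region 2372 bp inside the gene (chr6:127149575-127150067), 894 bp from the nearest further TSS of *Ccnd2* and within 1 kb of a TSS of the gene *9330179D12Rik*, was called at all 4 stages. It read 5.32 at DN, 6.21 at DP, 2.94 in SP4 and 4.31 in SP8. When each member was followed at 1 region called at all stages, this region stood for *Ccnd2*, whose height was then at least 1.5-fold higher at DP than at SP4 and SP8 and higher at DN than at SP4. A lower promoter region, also called at all 4 stages and nearer the 5′ end (chr6:127151619-127152082), went the other way, with 2.40 at DN, 2.60 at DP, 3.95 in SP4 and 3.02 in SP8, and its height was over 1.5-fold higher at SP4 than at DN.

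The CDK inhibitors hold cells back. *Cdkn1a*, the p21 gene (chr17:29090976-29100727, plus strand), was the only one past 1.5-fold. Its tallest promoter peak was 11.6 at DN, 6.19 at DP, 9.25 in SP4 and 8.19 in SP8, and the height at DN was 1.69-fold over DP. In fold enrichment, both of its taller TSS regions were lowest at DP: the one further upstream (chr17:29093488-29094180) read 10.1, 6.19, 9.25 and 8.19, and the one near an inner start (chr17:29097181-29097598) read 11.6, 4.88, 8.89 and 5.37. By height, the second region was lowest at SP8 (-0.68, with -0.64 at DP). Followed at the upstream region alone, the difference between DN and DP was under 1.5-fold. An intronic region between them (chr17:29095151-29095744) moved otherwise, from 6.21 at DN through 9.39 and 10.0 to 13.2 at SP8. *Cdkn2c* (p18), the tallest of the group by mean, read 9.53, 9.28, 13.5 and 11.2, and *Cdkn1b* (p27) 8.34, 9.06, 10.9 and 10.4, both within 1.5-fold.

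The largest difference of the 40 was at *E2f2* (chr4:136172394-136196057, plus strand), an activator E2F. Its tallest promoter peak was 5.96 at DN, 4.70 at DP, 11.3 in SP4 and 10.3 in SP8. Both single positive values lie well above both immature values, and by height SP4 was 2.14-fold over DP and 1.88-fold over DN, and SP8 was 1.93-fold over DP and 1.69-fold over DN. The tallest peak lay at an inner start except at SP8, but 2 TSS regions moved alike. The one 120 bp from a TSS at the 5′ end (chr4:136172084-136172274) read 4.07, 3.88, 9.12 and 10.3, and the one at the inner start (chr4:136180004-136180835), which holds the *E2f2* promoter printed above, read 5.96, 4.70, 11.3 and 9.74. Another TSS region (chr4:136172865-136173217) did not follow, with 4.39, 2.56, 3.31 and 4.46. *E2f1*, the other activator in the list, was 15.8 at DN, 19.2 at DP, 23.4 in SP4 and 23.5 in SP8, a range of 1.46-fold.

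Around *E2f2*, the tallest region of all lay in an intron (chr4:136189778-136190386), with 23.8 at DN, 19.7 at DP, 32.7 in SP4 and 31.6 in SP8. A region just past the 3′ end (chr4:136196094-136196553) was 3.58, 4.96, 6.03 and 14.8, and was over 4-fold higher at SP8 than at DN by height. A pair of neighbouring intronic regions went down instead. The taller (chr4:136177637-136178210) read 6.34 at DN, 7.52 at DP, 3.01 in SP4 and 3.20 in SP8, and its neighbour (chr4:136177153-136177495) was not called at SP4.

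**Figure D3:**
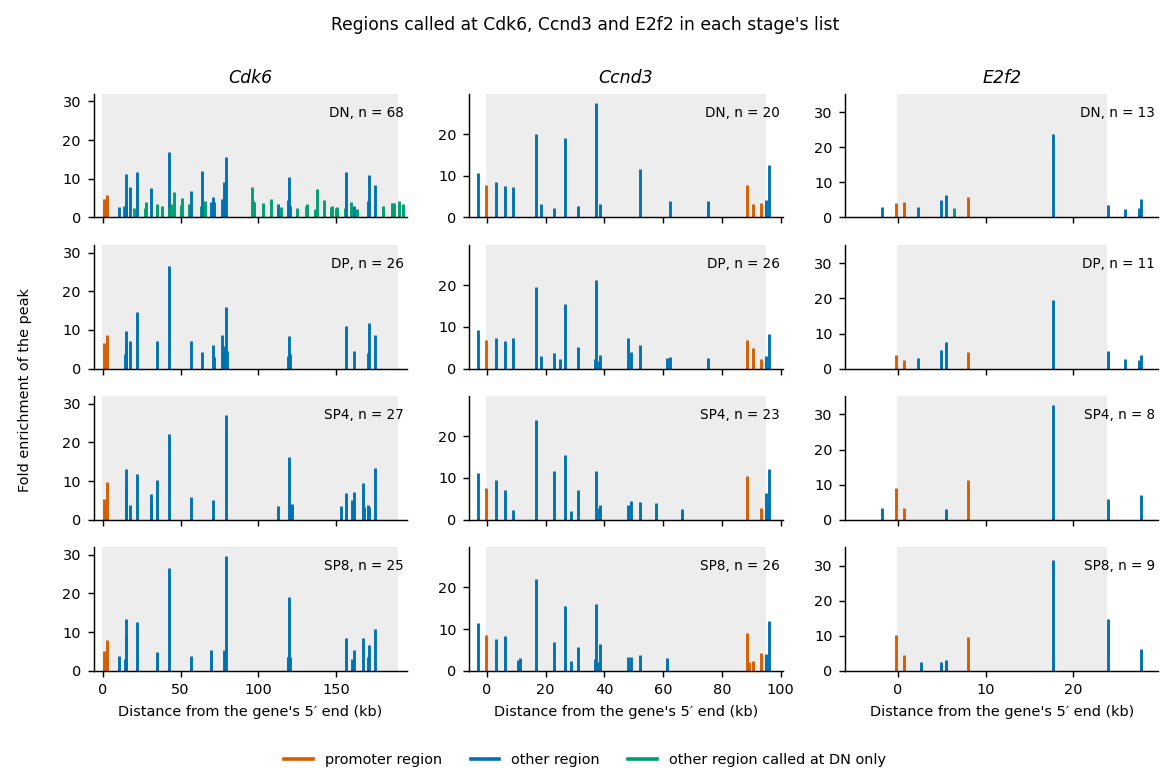
Regions called at *Cdk6*, *Ccnd3* and *E2f2* in the lists of DN, DP, SP4 and SP8 (rows), placed by the distance of their centre from the 5′ end of the gene (horizontal axis, kb; grey, gene body) with the fold enrichment of the tallest peak (vertical axis). *Cdk6* carries low regions along its whole length that were called at DN only, and the promoter regions of *E2f2* are taller at SP4 and SP8.

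Beyond promoters, the members held 186 other peaks at DN, 129 at DP, 127 in SP4 and 121 in SP8. Of these, 39, 26, 29 and 25 lay within 1 kb of the TSS of another gene. DN had 1.44 times as many as DP, but the same ratio was 1.41 for all genes and 1.40 for the whole lists. *Cdk6* alone accounts for 64 of the DN peaks, and without it the counts were 122, 104, 101 and 97 and the ratio 1.17. Per 10 kb of gene and flanks, the members held 1.49 other peaks at DN, 1.03 at DP, 1.02 in SP4 and 0.97 in SP8, against 0.73, 0.52, 0.56 and 0.52 over all genes. *Mcm4* and *Aurka* held none at any stage.

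**Figure D4:**
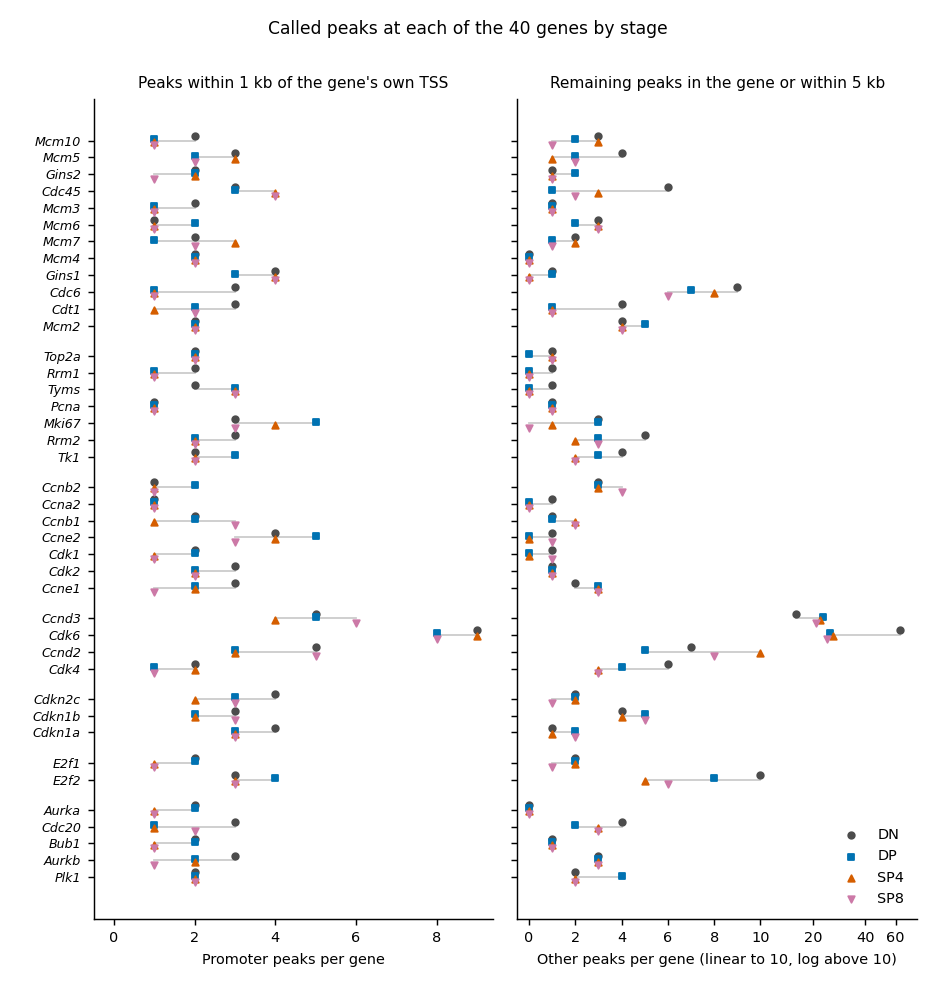
Promoter peaks (left) and other peaks (right) of each member in the lists of DN, DP, SP4 and SP8, in the order of the plot of heights. The right axis is linear to 10 and logarithmic above. *Cdk6* stands out with 64 other peaks at DN and 24 to 26 at the other stages, and *Ccnd3* holds fewer at DN (16) than elsewhere (21 to 23).

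Merged over stages, the members had 96 promoter regions and 222 other regions. Of the promoter regions, 67 (69.8%) were called at all 4 stages, against 54.4% for all genes. Of the other regions, 78 (35.1%) were called at all 4 stages, against 29.6%, 59 (26.6%) at DN only, against 22.5%, 10 at DP only (4.50% against 5.43%), 11 at SP4 only (4.95% against 8.31%) and 9 at SP8 only (4.05% against 4.80%). Without *Cdk6*, 20 of 149 other regions (13.4%) were called at DN only and 65 (43.6%) at all 4 stages. The DN-only share above the background thus rested on *Cdk6*, and the other members had a lower share than all genes. By position, 121 of the 222 lay in introns, 56 downstream of the gene and 27 upstream.

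**Figure D5:**
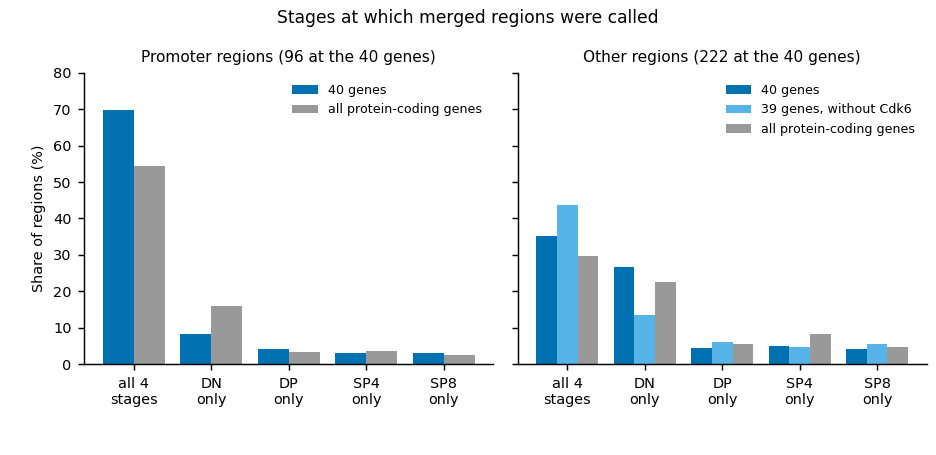
Share (vertical axis, %) of promoter regions (left) and other regions (right) called at all 4 stages or at DN, DP, SP4 or SP8 only, for the members, for the members without *Cdk6*, and for all protein-coding genes. Promoter regions called at all 4 stages reach 69.8% for the members and 54.4% for all genes, and the DN-only share of other regions falls from 26.6% to 13.4% without *Cdk6*.

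*Cdk6* spans 189.5 kb and had 77 regions, the most of the 40. Of its 73 other regions, 39 were called at DN only and 13 at all 4 stages. The 39 were low, with a median fold enrichment of 3.40 and a highest of 7.90. The regions shared by all stages were taller. An intronic region 42273 bp into the gene (chr5:3383467-3384049) read 16.9 at DN, 26.6 at DP, 22.1 in SP4 and 26.5 in SP8, and one at 79473 bp (chr5:3420757-3421159) read 15.5, 15.8, 27.1 and 29.7. The second was close to equal at DN and DP and higher at SP4 and SP8, and so was a region at 119604 bp (chr5:3460800-3461379; 10.5, 8.54, 16.3 and 19.1). The opposite order held at chr5:3512582-3513220, with 11.1 at DN, 11.9 at DP, 3.15 in SP4 and 6.71 in SP8. Of the other peaks of *Cdk6* over the 4 lists, 46.0% were DN peaks, against 31.3% over all genes.

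*Ccnd3* followed with 35 regions, but 0 of its 30 other regions were called at DN only (22.5% over all genes) and 14 lacked a DN peak. The tallest, in an intron 37280 bp into the gene (chr17:47542031-47542632), fell from 27.5 at DN and 21.3 at DP to 11.6 at SP4 and 16.1 at SP8. One more (chr17:47556742-47557584) went from 11.7 at DN to 5.73, 4.12 and 3.81. Another (chr17:47527648-47527949) rose from 2.27 at DN and 3.79 at DP to 11.6 at SP4 and 6.85 at SP8, a 5.06-fold range in height. A pair of intronic regions further on was called at DP, SP4 and SP8 but not at DN, the taller of them (chr17:47553020-47553249) with 7.26, 3.45 and 3.27. Regions that fell, rose or were first called after DN thus lie within this one gene. *Ccnd2* had 18 regions, and 6 of its 12 other regions lacked a DN peak. Over all genes, the other regions without a DN peak were spread over several stage sets. These were SP4 only (8.31%), DP only (5.43%), SP8 only (4.80%) and SP4 with SP8 (4.52%). The rest were DP with both SP4 and SP8 (1.92%), DP with SP4 (1.29%) and DP with SP8 (0.67%). Whether *Ccnd3* and *Ccnd2* differ from all genes in this was not tested.

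Over all members, other regions called at all 4 stages varied more than promoter regions. Of 78 such other regions, 21 (26.9%) ranged over at least 2-fold in height, against 36.8% for all genes, and of 67 promoter regions 6 (8.96%), against 15.3%. The 21 were tallest at DN in 5, at DP in 7, at SP4 in 4 and at SP8 in 5. Of the 78, 6 ranged over 4-fold, against 4.92% of those of all genes, and 3 of these not yet described are named for their size, after their values were seen. An intronic region of *Mcm2* (chr6:88886343-88886908) read 19.4 at DN, 20.1 at DP, 3.08 in SP4 and 3.73 in SP8, while the promoter of the same gene ranged over 1.24-fold. A region upstream of *Mcm3* (chr1:20825021-20825411) read 15.1, 3.55, 18.6 and 16.9, low at DP alone. A region downstream of *Cdk4*, at the TSS of *Tspan31* (chr10:127070176-127070470), read 13.1, 2.43, 7.74 and 4.37.

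Among regions other than promoter regions, the tallest called at a single stage were at DN. An intronic region of *Cdc45* (chr16:18788599-18788957) had a fold enrichment of 18.6 there, higher than 93.1% of the peaks of the list, and another in the same gene (chr16:18783909-18784092) had 10.7. At DP the tallest were downstream of *Plk1* (chr7:122170203-122170335; 5.12) and in an intron of *Cdk6* (chr5:3421557-3421725; 4.53). At SP4 they lay in introns of *Cdk6* (chr5:3372506-3372805; 6.64) and *Ccnd3* (chr17:47562558-47562659; 4.06). At SP8 they lay in introns of *Ccnb2* (chr9:70416287-70416389; 4.58) and *Cdk6* (chr5:3460586-3460685; 3.53). A stage without a call may hold signal under the threshold of the caller, and the low regions are closest to it.

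Other genes of the same pathways were read in the same way from a list of 92 genes, among them the origin recognition complex, replication factor C, the DNA polymerase subunits, condensin, kinetochore and spindle genes, and the pocket proteins. Of the 92, 91 (98.9%) had a promoter peak at all 4 stages, and 0 differed by 2-fold between stages. The exception was *Ccna1*, the germline cyclin A, with a promoter peak at DN alone (7.10). The median range of height over the stages was 0.39 for these genes, 0.41 for the members and 0.48 for all genes. By 1.5-fold, 0 of 91 were higher at DN than at DP and 10 higher at DP, 2 were higher at DN than at SP4 and 6 higher at SP4, and 0 were higher at DN than at SP8 and 8 higher at SP8. Between DP and SP4, 5 were higher at DP and 0 at SP4, the opposite side to the members' 0 and 1, and between DP and SP8 the counts were 2 and 1. Between SP4 and SP8 they were 1 and 2. The shares of all genes for the same comparisons run from 3.09% to 10.4%, as given above. Of 72 with a RefSeq promoter, 22.2% held an E2F match, 40.3% a CHR match and 61.1% a CCAAT box. Around the DN summit of all 92, the shares were 8.70%, 14.1% and 54.3%, each below the members' 22.5%, 27.5% and 67.5%.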

How the data were processed

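The authors mapped the reads of 16 ATAC-seq libraries to mm10 (BWA), dropped duplicates (Picard) and thinned the libraries to their median depth. After pooling the 4 mice of a stage, they ran MACS2 at 5% FDR. Of the deposited columns, the fold enrichment of a peak, which is a ratio of its summit over the local background, and its −log10 q-value were used. Read counts per library are not in these lists, so no depth is given beside a value, and pooling leaves no spread between mice. Members, motifs and gene lists were chosen with earlier results of these data known.

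Genes and TSSs came from GENCODE M21. Peaks were assigned to a gene within 5000 bp of it and to its promoter within 1000 bp of a TSS. Peaks of the 4 lists sharing at least 1 bp were merged. Fold enrichments were divided by the median of the same list over regions called at all 4 stages, and 1.5-fold was taken as a difference. RefSeq promoters were searched on both strands without mismatch. For a gene with several RefSeq promoters, the one starting nearest its DN summit was used, except in the set of all promoters. Members lacking a promoter peak at a stage, those past 1.5-fold and the tallest and lowest of each role were named, with the 2 tallest single-stage regions of each stage and the 3 members with most regions. Other items are marked as chosen after their values were seen, and further genes and regions named complete their group. Python 3.11.15, pandas 2.3.3 and pysam 0.24.0 were used, and the scripts were tested on simulated peaks.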

Additional observations from a re-analysis of the deposited data

How the results depend on the processing

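No paired analysis was possible because each list pools the 4 mice, and for the same reason no mouse was left out. All 40 members kept a promoter peak at each stage under every alternative tried for that count, and 91 of the other pathway genes did at all stages. With promoters of 200 bp, promoter peaks numbered 65 at DN, 56 at DP, 54 in SP4 and 57 in SP8, and 3 and 2 members were higher in SP4 and SP8 than at DP. With 2500 bp, 0 were higher at DN than at DP. With the gene body alone, other peaks numbered 108, 69, 67 and 67, and regions called at DP only and at SP4 only 8 each. With TSSs of protein-coding transcripts only, 1 member was higher at DP than in SP4 and 1 than in SP8. With equal numbers of peaks, 27 regions were called at DN only, in place of 67. Other peaks then numbered 125 at DN, 123 at DP, 117 in SP4 and 121 in SP8, so that DN and DP were nearly level. At 2-fold, 0 members were called in any comparison but 1 higher in SP4 than at DP (*E2f2*). Without scaling, 0 were higher at DP than at DN and 3 higher in SP4 than at DP. By 15 percentile points, 1 was higher at DP than at DN, 2 higher in SP4 than at DN, 2 at DN than in SP8 and 1 the other way. These alternatives were added after seeing the data: less the median of all genes, 0 were higher at DP than at DN, 2 higher in SP4 than at DP, 2 in SP4 than at DN, 2 at DN than in SP8 and 1 in SP8 than at DN; at the same region in all stages, 0 were higher at DN than at DP, and 1 each was higher at DP than in SP4, at DP than in SP8 and at DN than in SP4 (*Ccnd2* in all 3). Without *Cdk6*, 27 regions were called at DN only and 122 other peaks remained at DN. For the other pathway genes, the search moved to the DN summit gave 8 genes with an E2F match in place of 16 and 13 with a CHR match in place of 29. All remaining counts, the members' motif counts at the DN summit among them, stayed within 1.5 times of their value.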
